A study of Mus musculus with 12 samples.

Results

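The comparison set 3 retinas collected 8 d after photoreceptor-specific deletion of Otx2 against 3 retinas collected 4 d after it, with no control retina in the contrast. These are 6 of the 12 libraries of the series, chosen by their group labels alone: the P38 KO mice (mice 10, 11 and 12) and the P34 KO mice (mice 7, 8 and 9). All 6 mice carried Crx-CreERT2 and Otx2 flox/flox and received tamoxifen once, intraperitoneally, at P30 (the labels give corn oil as its vehicle, the study's methods sunflower oil), so the groups differ by 4 d both in time since induction and in age, and those cannot be told apart. Cre activity is driven by the Crx promoter in photoreceptors (PRs), and recombination removes the coding exon that encodes most of the homeodomain. The Otx2 gene of bipolar cells and of the retinal pigmented epithelium (RPE) is not the target of this deletion. Each library is poly(A) RNA of the retina of 1 mouse, RPE included, after dissection of the eye in cold PBS. The remaining libraries, 3 from P30 control mice and 3 from P32 KO mice, share the model fit and are quoted below only as reference levels.

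OTX2 is a homeodomain transcription factor that, with its relative CRX, governs the genes of PR identity and function, and in the RPE it works with MITF on pigment genes. Around the neural retina lie tissues that a dissection can carry along, among them the ciliary body and iris epithelia, which secrete aqueous humor and components of the vitreous and anchor the zonule fibers of the lens. Extracellular matrix proteins, epithelial transporters and junction proteins are abundant in those epithelia, and several are also made by cells of the retina and its vessels.

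Libraries held 29701483 to 40737548 counted reads at P34 and 29947009 to 45797527 at P38. Replicates of a group differed by more than sampling noise, with a chi-square per degree of freedom between 19.7 and 45.9 for pairs of P34 mice and between 25.7 and 71.6 for pairs of P38 mice. Markers of retinal cells were present in every library: the summed level of 10 rod markers was 75778 to 100642 CPM (counts scaled by library size, TMM-adjusted) at P34 and 73895 to 111315 CPM at P38. In most of the called genes the 3 P34 libraries were the lowest of the 12, so levels are given per mouse. Over all genes the groups were not separate: across genes, P34 mouse 9 and P38 mouse 12 had the highest correlation of the 15 pairs of these libraries (Pearson's r = 0.988). Both are female by sex-linked transcripts, while mice 7, 8, 10 and 11 are male, and the part of sex in that correlation was not tested. In bulk RNA, fewer cells of a type and less RNA per cell cannot be told apart.

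Of 18628 genes tested, 37 were higher at P38 than at P34 (0.199%) and 0 were lower (0%), by edgeR's quasi-likelihood test. A call required a p of 0.05 or less after Benjamini-Hochberg adjustment over all genes tested, with a log2 fold change beyond 0.5 in either direction. The genes that rose include those of secreted matrix proteins, epithelial transporters and cell junction proteins, and the transcripts that define PRs, bipolar cells and the other retinal neurons were not among them. Their log2 fold changes ran from 1.43 to 5.51 with a median of 2.98, against a median of -0.00295 over all genes tested. Dsg1a and Tbx22, with at most 3 counts in every P34 mouse, enter that range and median at the lower bounds given with each gene. For all 37 genes the P38 mice lay above the P34 mice without overlap, which was also true of 999 of all genes tested (5.36%), while 854 genes (4.58%) showed the opposite separation. With unadjusted p in place of adjusted p, the counts were 560 higher (3.01%) and 149 lower (0.8%), and DESeq2 in place of edgeR called 137 higher and 7 lower. Leaving out mouse 7, 8, 9, 10 or 11 reduced the 37 calls to 12, 8, 15, 21 or 16 genes respectively, all of them within the 37. Leaving out mouse 12 gave 50 genes, 36 of them within the 37.

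**Figure D1:**
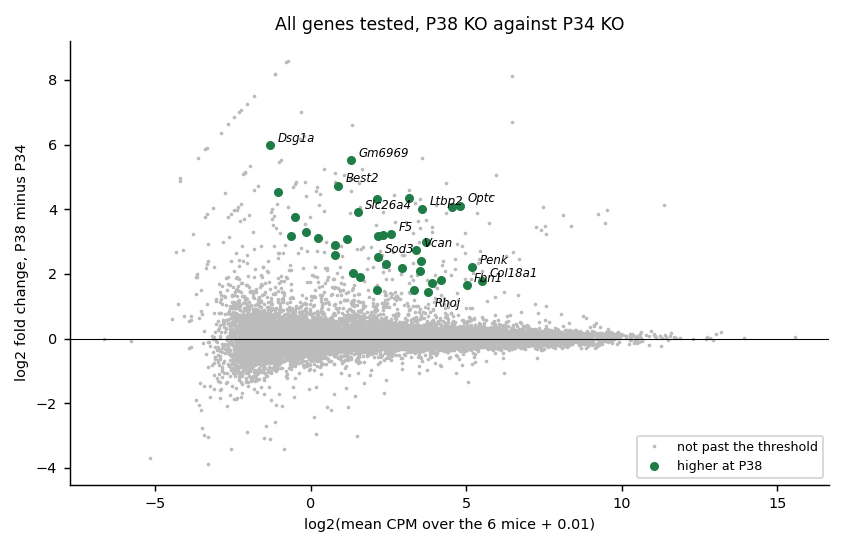
Each point is a gene, with the log2 of its mean CPM over the 6 mice (plus 0.01) on the x-axis and the log2 fold change of P38 over P34 on the y-axis. Green points are the 37 genes past the threshold, all above 0, and grey points include genes with larger fold changes whose spread between mice kept them from passing.

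In 36 of the 37 genes the 3 P34 mice had the lowest levels of all 12 mice of the series. The exception was Gm6969, a processed pseudogene (chr12:24638669-24639010, minus strand, GRCm38) whose reads may be shared with its parent gene. Its level was 0.110, 0.122 and 0.0677 CPM in P34 mice 7, 8 and 9 and 5.87, 4.13 and 4.45 CPM in P38 mice 10, 11 and 12, but P30 control mouse 3 was also at 0.119 CPM. As a description with no test, mean levels of the 37 genes at P34 were 0.653% to 31.7% of the P30 control mean (median 8.88%) and 1.18% to 43.3% of the P32 mean (median 13.9%). At P38 they were 42.6% to 184% of the P30 mean (median 67.9%) and 60.4% to 173% of the P32 mean (median 98.0%), so 36 of the 37 means remained below the P30 mean and 21 below the P32 mean. Within P38, mouse 12, the only female of that group, had the lowest level in 32 of the 37 genes, and mouse 11 the highest in 23.

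Among small leucine-rich proteoglycans, Optc and Fmod were higher at P38. Opticin, the product of Optc (chr1:133897199-133907999, minus strand, GRCm38) is a small leucine-rich proteoglycan that the nonpigmented ciliary epithelium secretes into the vitreous. Its level was 4.06, 2.47 and 2.64 CPM in P34 mice 7, 8 and 9 and 51.6, 72.6 and 34.7 CPM in P38 mice 10, 11 and 12, that is 3.06 ± 0.871 against 53.0 ± 19.0 CPM (mean ± SD, n = 3 each). The lowest P38 mouse was far above the highest P34 mouse, and edgeR's quasi-likelihood test gave a log2 fold change of 4.11 ± 0.41 (SE) with an adjusted p of 0.00146. Fmod, encoding fibromodulin of the same family, rose with a log2 fold change of 2.98 (adjusted p = 0.0123 by the same edgeR test). These were 2 of the 11 tested members of the family of 14, whose median log2 fold change was 1.47. Of the 11, 6 were higher in every P38 mouse than in every P34 mouse, beside 5.36% of all genes tested. Ogn, encoding osteoglycin, was at 0.966, 0.980 and 1.32 CPM at P34, against 33.1, 21.9 and 10.1 CPM at P38 and did not pass (edgeR adjusted p = 0.0613), though it did in a fit of the 6 libraries (edgeR adjusted p = 0.00639) and by DESeq2 (adjusted p = 6.06e-06). Dcn and Bgn, the decorin and biglycan genes, overlapped between the groups, with log2 fold changes of 0.35 and 0.87 and edgeR adjusted p of 1 and 0.855.

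Microfibril genes were the list with the most calls. Fibrillins build the fibers of the zonule that suspends the lens, latent TGF-beta binding proteins and fibulins associate with those fibers, and 5 of the 16 members tested rose: Fbln1, Ltbp2, Mfap4, Fbn1 and Ltbp1. All 16 members had a positive log2 fold change, with a median of 1.09. Of the 16, 11 were higher in every P38 mouse than in every P34 mouse. Over all genes tested, 5.36% were separated in this way and 0.199% were called higher. Fbln1, the fibulin 1 gene (chr15:85205949-85286535, plus strand, GRCm38), was at 3.73, 1.62 and 2.51 CPM at P34, against 40.8, 54.6 and 37.0 CPM at P38. This is a rise from 2.62 ± 1.06 to 44.1 ± 9.27 CPM (mean ± SD, n = 3 each), with a log2 fold change of 4.08 ± 0.39 (SE) and an edgeR adjusted p of 0.00114. Ltbp2, whose product is needed for a stable zonule (chr12:84783212-84876532, minus strand, GRCm38), was at 1.57, 1.18 and 1.46 CPM at P34, against 17.5, 32.8 and 17.3 CPM at P38. The lowest P38 mouse was again far above the highest P34 mouse, with a log2 fold change of 4.01 ± 0.38 (SE) and an edgeR adjusted p of 0.00114. Mfap4, a microfibril-associated glycoprotein gene, was at 1.13, 0.637 and 0.745 CPM at P34, against 21.9, 19.9 and 9.37 CPM at P38. Its log2 fold change was 4.35 ± 0.46 (SE), with an edgeR adjusted p of 0.00240. Fbn1, the fibrillin 1 gene, was at 13.5, 17.5 and 15.8 CPM at P34, against 38.2, 64.2 and 44.6 CPM at P38. Its log2 fold change was 1.65 ± 0.23 (SE, edgeR adjusted p = 0.0123), and Ltbp1 rose by 1.49 on the log2 scale (edgeR adjusted p = 0.0123).

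Vcan, the versican gene (chr13:89655312-89742509, minus strand, GRCm38), had the smallest p of all genes tested. Versican is a large chondroitin sulfate proteoglycan of the vitreous and of the matrix between PRs, and its transcript was at 2.93, 2.92 and 2.34 CPM in the P34 mice and 16.9, 22.1 and 15.3 CPM in the P38 mice. The groups were tight and well apart, 2.73 ± 0.338 against 18.1 ± 3.57 CPM (mean ± SD, n = 3 each), with a log2 fold change of 2.73 ± 0.23 (SE) and an edgeR adjusted p of 0.000786. Vcan was the only 1 of the 7 tested lecticans and link proteins to pass, and their median log2 fold change was -0.0237. Matn2, encoding the filament-forming matrilin 2, rose by 2.18 on the log2 scale (edgeR adjusted p = 0.0207), while all 11 tested matrilins, thrombospondins and emilins had a positive sign and their median was 0.508. Of 42 collagen genes tested, Col18a1 and Col1a2 rose and the median log2 fold change was 0.214. Of the 42, 12 did not overlap in the direction of P38, beside 5.36% of all genes tested. Col18a1, a basement membrane collagen gene, was at 20.2, 21.5 and 19.9 CPM at P34, against 61.7, 92.8 and 58.4 CPM at P38, a log2 fold change of 1.79 ± 0.26 (SE, edgeR adjusted p = 0.0150). Col1a2, a chain of type I collagen, rose by 1.70 (edgeR adjusted p = 0.0450), close to the limit. It did not pass in a fit of the 6 libraries (edgeR adjusted p = 0.0767).

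Several collagen and basement membrane genes had larger fitted fold changes than these and did not pass, and in them P38 mouse 12 lay closer to the P34 mice than mice 10 and 11 did. Col4a1, a main chain of basement membrane collagen, was at 31.4, 39.0 and 38.5 CPM at P34 and at 835, 657 and 60.4 CPM in P38 mice 10, 11 and 12 (edgeR adjusted p = 0.468). Nid1, the nidogen 1 gene, showed the same order with 3.67, 3.04 and 4.30 CPM against 205, 149 and 9.17 CPM (edgeR adjusted p = 0.480). Both genes were chosen after their values were seen. All P38 mice were above all P34 mice in each of them.

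**Figure D2:**
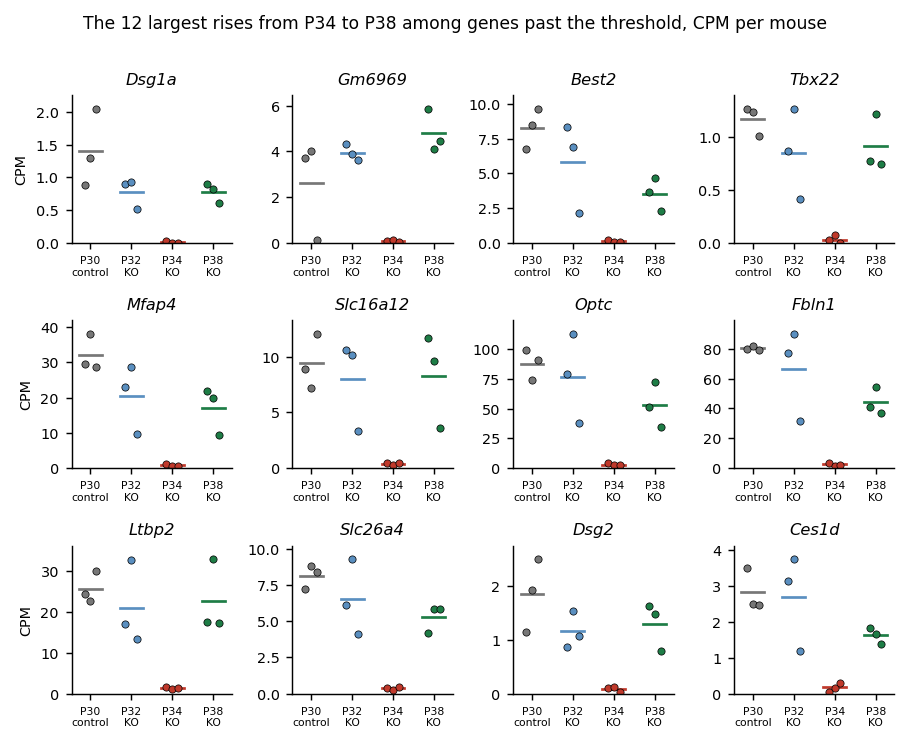
CPM of the 12 genes with the largest log2 fold change among those past the threshold (y-axis, linear, from 0) in the 3 mice of each group (x-axis), with the mean as a bar. P34 mice sit near 0 in every panel and P38 mice are back within or near the range of the P30 and P32 mice, and P30 mouse 3 is the only mouse outside P34 near 0, in the Gm6969 panel.

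Some transporter and channel genes of secretory epithelia were also higher at P38. Of 27 tested genes of ion and fluid transport, Slc26a4, Slc13a4, Slc6a13 and Best2 were higher, and the median log2 fold change was 0.382. Of the 27, 12 did not overlap in that direction and 1 in the other, beside 5.36% and 4.58% of all genes tested. Slc26a4 (chr12:31519827-31559969, minus strand, GRCm38) encodes the anion exchanger pendrin and was at 0.387, 0.245 and 0.440 CPM at P34, against 4.2, 5.84 and 5.87 CPM at P38. With means of 0.357 ± 0.101 and 5.30 ± 0.958 CPM (SD, n = 3 each), its log2 fold change was 3.90 ± 0.34 (SE) and its edgeR adjusted p 0.000786. Best2, a bestrophin anion channel of the ciliary epithelium, went from 0.249, 0.0735 and 0.0677 CPM to 3.69, 4.64 and 2.27 CPM, a log2 fold change of 4.73 ± 0.61 (SE, edgeR adjusted p = 0.00725). Slc6a13, a transporter of GABA and taurine, was at 5.99, 3.82 and 3.05 CPM at P34, against 21.7, 20.4 and 13.2 CPM at P38. The groups did not overlap, and the log2 fold change was 2.10 ± 0.35 (SE, edgeR adjusted p = 0.0345). Slc13a4, a sulfate transporter gene, rose by 3.2 on the log2 scale (edgeR adjusted p = 0.00399). Slc16a12, a creatine transporter gene outside that list, was at 0.497, 0.318 and 0.440 CPM at P34, against 11.7, 9.57 and 3.56 CPM at P38, a log2 fold change of 4.31 ± 0.55 (SE, edgeR adjusted p = 0.00725).

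Most junction genes of epithelia did not pass. Of 29 tested tight and gap junction genes, Cldn1, Cldn2 and Cldn19 rose, 8 had a negative sign and the median log2 fold change was 0.237. Cldn2, which forms cation-permeable pores between epithelial cells, was at 1.35, 0.808 and 0.508 CPM at P34, against 9.78, 8.87 and 5.70 CPM at P38. Its log2 fold change was 3.17 ± 0.39 (SE, edgeR adjusted p = 0.00621), against 1.91 for Cldn19 and 1.51 for Cldn1 (edgeR adjusted p = 0.0150 and 0.0383). Cldn1 did not pass in a fit of the 6 libraries (edgeR adjusted p = 0.0656). Of 9 tested desmosome genes, Dsg1a and Dsg2, which encode desmosomal cadherins, rose and the median was 0.134. Dsg1a was counted in 1 read in mouse 7 and in none in mice 8 and 9, and was at 0.898, 0.821 and 0.611 CPM at P38. Against a floor of 3 counts per P34 library, its P38 mean was at least 9.03-fold higher (edgeR adjusted p = 0.005). Dsg2 was at 0.110, 0.122 and 0.0339 CPM at P34, against 1.63, 1.48 and 0.781 CPM at P38, a log2 fold change of 3.77 ± 0.50 (SE, edgeR adjusted p = 0.00961).

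Single genes of several other lists passed. Of 15 tested neuropeptide genes and binding partners, Penk and Crhbp rose and the median log2 fold change was 0.173. Penk, the precursor of the enkephalins, was at 16.0, 11 and 12.2 CPM at P34, against 70.2, 62.4 and 47.9 CPM at P38, that is 13.1 ± 2.60 against 60.2 ± 11.3 CPM (mean ± SD, n = 3 each). Its log2 fold change was 2.20 ± 0.33 (SE, edgeR adjusted p = 0.0206), and that of Crhbp, which encodes the binding protein of corticotropin-releasing hormone, was 2.39 (edgeR adjusted p = 0.0123). Notum, encoding an enzyme that inactivates Wnt ligands, was the 1 gene of 43 tested Wnt genes to pass, with a log2 fold change of 3.17 (edgeR adjusted p = 0.0270) beside a median of 0.167. Wif1, a secreted Wnt inhibitor gene, was at 0.0276, 0.0245 and 0.102 CPM at P34, against 0.582, 0.633 and 0.238 CPM at P38 and did not pass by edgeR (adjusted p = 0.447) but did by DESeq2 (adjusted p = 0.0443). Dio3, which inactivates thyroid hormone, rose by 2.59 (edgeR adjusted p = 0.0129) as 1 of 9 tested genes of thyroid hormone handling. F5, coagulation factor V, rose by 3.22 (edgeR adjusted p = 0.00418) as 1 of 19 tested complement and coagulation genes. Sod3, the extracellular superoxide dismutase gene, rose by 2.53 (edgeR adjusted p = 0.00725) as 1 of 25 tested antioxidant genes, whose median was 0.0311.

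The other called genes belonged to various classes. Tbx22, a T-box transcription factor gene, was at 0.0276, 0.0735 and 0 CPM at P34, no more than 3 counts in any mouse, and 0.776, 1.22 and 0.747 CPM at P38, at least 10.6-fold higher than a floor of 3 counts per P34 library (edgeR adjusted p = 0.0123). Ces1d, a carboxylesterase gene, was at 0.0552, 0.147 and 0.305 CPM at P34, against 1.82, 1.67 and 1.39 CPM at P38, a log2 fold change of 3.30 ± 0.53 (SE, edgeR adjusted p = 0.0285). Zic4, a zinc finger transcription factor gene, rose by 2.88 on the log2 scale (edgeR adjusted p = 0.0195). The protease gene Tmprss11e rose by 3.10, Klhdc7a by 3.09, the olfactomedin-like gene Olfml2a by 2.29, the scavenger receptor gene Colec12 by 2.03, Fam129a by 1.80 and the small GTPase gene Rhoj by 1.43. In those 6 genes the edgeR adjusted p lay between 0.005 and 0.0308.

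Markers of the ciliary body and iris epithelium also separated the groups. All 9 markers on that list were tested and counted in all groups, and Optc, Best2 and Zic4 passed the edgeR test. All 9 were higher in every P38 mouse than in every P34 mouse, beside 5.36% of all genes tested. The median log2 fold change of the 9 was 2.71, and their summed level was 12.4 to 19.3 CPM at P34 and 61.4 to 113 CPM at P38, beside 132 to 147 CPM in P30 controls and 61.4 to 156 CPM at P32. Otx1, the OTX2 relative expressed in the ciliary body and iris, was at 0.331, 0.245 and 0.339 CPM at P34, against 2.30, 2.42 and 1.26 CPM at P38 and did not pass (edgeR adjusted p = 0.101), though it did in a fit of the 6 libraries (edgeR adjusted p = 0.0192) and by DESeq2 (adjusted p = 0.000124). Msx1 was at 0.0828, 0.0245 and 0.0339 CPM and 1.94, 1.64 and 0.204 CPM (edgeR adjusted p = 0.286). The part of these cells in the rises of the matrix, transporter and junction genes was not tested.

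Lens transcripts also separated the groups. All 18 lens markers were tested and none was at 0 in all 6 mice. All 18 were higher in every P38 mouse than in every P34 mouse (5.36% over all genes tested), with a median log2 fold change of 3.40. The summed level was 355 to 1049 CPM at P34 and 6324 to 16073 CPM at P38, but it also ran from 797 to 57692 CPM among the P30 controls and from 1132 to 62775 CPM at P32. With all 12 libraries setting the spread, 0 of the 18 passed the edgeR test and 10 had an unadjusted p of at most 0.05 with the fold limit. DESeq2 called 2 of them, and a fit restricted to the 6 libraries called 10. Cryaa, the alpha A-crystallin gene, was at 150, 406 and 302 CPM at P34, against 8446, 3389 and 3178 CPM at P38, and in P30 mouse 2 and P32 mouse 6 it was at 283 and 384 CPM, within the P34 range. Lists of stroma and cornea also rose in sum, but with fewer of their markers separated. The 7 fibroblast and choroid stroma markers summed to 27.5 to 50.7 CPM at P34 and 60.2 to 122 CPM at P38, with 1 call (Col1a2). Of these 7, 2 were higher in every P38 mouse than in every P34 mouse, and 2 had a negative log2 fold change. The corneal epithelium markers, of which 5 of 6 were tested, summed to 1.27 to 4.09 CPM at P34 and 4.99 to 33.6 CPM at P38, with 1 call (Dsg1a). Of that list Aldh3a1, an aldehyde dehydrogenase gene abundant in the cornea, was also higher in every P38 mouse than in every P34 mouse, at 0.525, 0.980 and 0.812 CPM against 31.1, 18.2 and 1.32 CPM, and did not pass (edgeR adjusted p = 0.658), while the keratin genes Krt12 and Krt5 and the desmoplakin gene Dsp overlapped between groups. The part of lens, stroma or cornea in the calls was not tested.

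**Figure D3:**
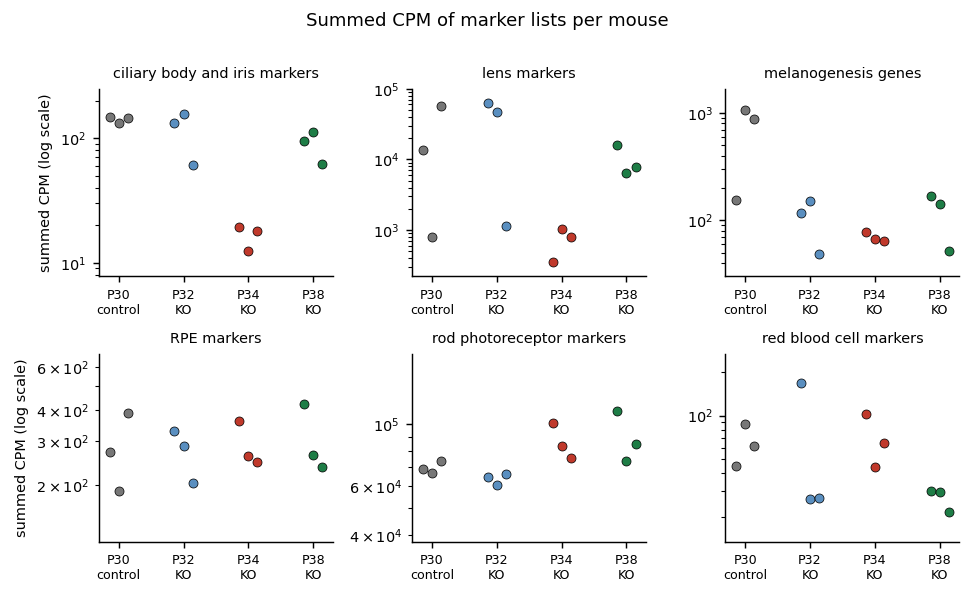
Summed CPM (y-axis, log scale) of 6 marker lists in the 3 mice of each group (x-axis), each point a mouse. Ciliary body and iris markers are lowest in the 3 P34 mice, at 12.4 to 19.3 CPM, lens markers vary widely at P30 and P32 as well, and RPE and rod markers overlap between P34 and P38.

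Marker lists of retinal neurons, Müller glia and astrocytes gave no calls by edgeR or DESeq2. Rod, cone and bipolar markers had median log2 fold changes of 0.0318, 0.0228 and 0.0303, and none of the 26 had an unadjusted p of 0.05 or less with a change beyond 0.5 on the log2 scale. Crx was at 1184, 1248 and 1254 CPM at P34, against 1457, 1061 and 1255 CPM at P38, and the groups overlapped. Otx2 itself was at 328, 331 and 377 CPM at P34, against 377, 307 and 372 CPM at P38, and the P30 controls were at 293, 328 and 315 CPM, so the whole-gene count, which includes the exons outside the deletion, checks no label here. All 9 amacrine and all 10 ganglion cell markers had a negative log2 fold change, with medians of -0.236 and -0.15. Of the amacrine markers, 1 was lower in every P38 mouse than in every P34 mouse, beside 4.58% of all genes tested. By the edgeR test 0 of the 19 passed, 0 did so at an unadjusted p with that fold limit, and 0 under DESeq2. The 4 horizontal cell and 4 astrocyte markers overlapped between groups, with medians of -0.12 and -0.101. Of 10 Müller glia markers, with a median of 0.0653, 3 were separated upward at P38 (Dkk3, Vim and Car14) and 2 downward (Rlbp1 and Glul). Over all genes tested those shares were 5.36% and 4.58%. Of the 10 markers, 0 had an unadjusted p of 0.05 or less with that fold limit. The largest change among them was that of Vim, the vimentin gene, at 1.01 on the log2 scale (edgeR adjusted p = 1).

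The 11 RPE markers and the 11 melanogenesis genes also gave no calls by edgeR or DESeq2. At an unadjusted p of at most 0.05 with the fold limit, only 1 melanogenesis gene (Mlph) was higher. RPE markers had a median log2 fold change of 0.0709 and summed to 247 to 361 CPM at P34 and 235 to 423 CPM at P38. Melanogenesis genes, which make the pigment of the RPE, iris and choroid, had a median of 0.95 and a positive sign in 10 of 11, and summed to 63.8 to 78.4 CPM at P34 and 52.1 to 167 CPM at P38. Tyrp1, which encodes an enzyme of melanin synthesis, was at 7.81, 4.41 and 5.86 CPM at P34, against 19.2, 16.3 and 6.04 CPM at P38 (edgeR adjusted p = 1). In Tyrp1, Mlana, Pmel and Tyr, P38 mice 10 and 11 were above every P34 mouse while mouse 12 lay within the P34 range or below it. Of the 10 matrix and signaling genes that the study names in its text, which were chosen on these samples and are no independent evidence of direction, Vcan passed (3 of the 10 by DESeq2), 10 of 10 had a positive sign and the median was 0.89. Of its 6 cytoskeletal genes 0 passed by edgeR or DESeq2, and the median was 0.551. At an unadjusted p of at most 0.05 with the fold limit, 1 was higher (Acta2).

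Single genes of these lists, and others that the study names, did not pass. Acta2, the smooth muscle actin gene, was at 2.60, 1.94 and 2.51 CPM at P34, against 11.4, 7.15 and 6.45 CPM at P38, with no overlap, but P30 control mice 2 and 3 were at 77.9 and 95.2 CPM (edgeR adjusted p = 0.973). Angptl2, which encodes a secreted angiopoietin-like protein, was at 1.35, 1.08 and 1.35 CPM against 4.29, 4.27 and 3.29 CPM (edgeR adjusted p = 0.283), and both genes passed when the fit held only the 6 libraries, Angptl2 also by DESeq2. Npsr1, the neuropeptide S receptor gene, was at 0.525, 0.612 and 0.677 CPM against 1.29, 1.15 and 0.950 CPM (log2 fold change 0.90, edgeR adjusted p = 0.938). Bfsp2, a beaded filament gene of the lens, and Papss2, an enzyme gene of sulfate activation, also did not overlap between groups, with log2 fold changes of 1.71 and 0.24. Myh11, Tagln, Myl9 and Cnn2, genes of contractile cells, overlapped and had log2 fold changes of 0.44, 0.37, 0.21 and 0.67. Wnt16 was at or below 3 counts in every P34 mouse and at 0.388, 0.375 and 0.0679 CPM at P38. The log2 fold changes of Pld5, Thbd and Slc45a2 were 0.39, 0.09 and 0.21, and those of Mitf, Far2 and Mtarc2 (Marc2 in the annotation used) were -0.31, -0.24 and -0.16, all with overlap and an edgeR adjusted p of 1.

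**Figure D4:**
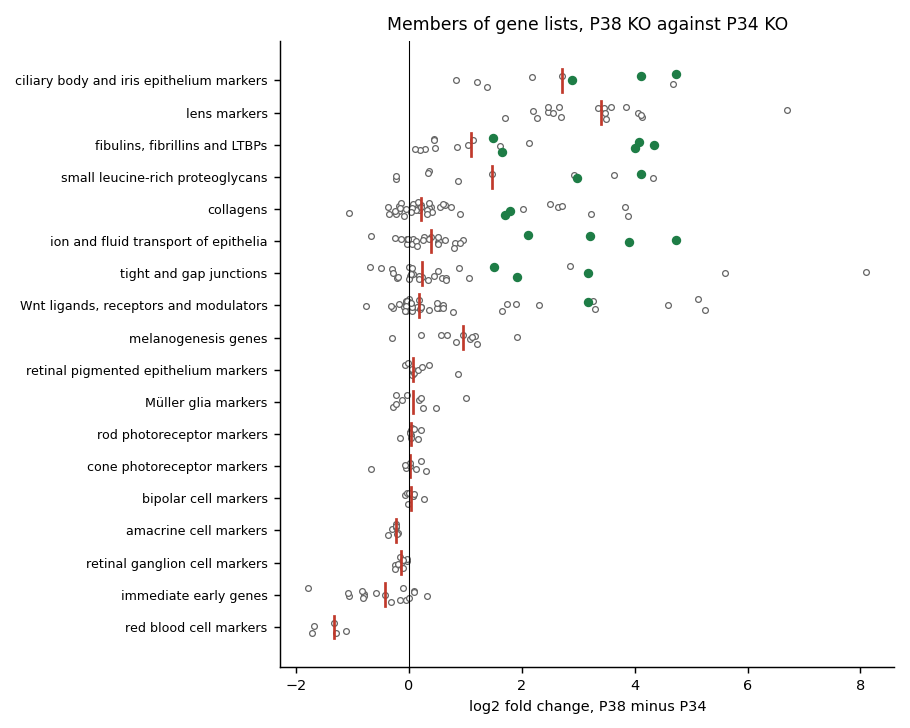
Log2 fold change of P38 over P34 (x-axis) for the tested members of 18 gene lists (rows), each circle a gene, filled green where it passed the threshold, with the list median as a red bar. Ciliary body and iris, lens and microfibril genes lie to the right of 0, rod, cone and bipolar medians lie within 0.0318 of 0, amacrine and ganglion cell genes all lie to the left of it, and immediate early and red blood cell genes lie mostly to the left with no call.

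Among genes lower at P38, 0 passed the edgeR test, and the 8 with the smallest p and a mean of at least 1 CPM are given here as values. Sik1, a salt-inducible kinase gene that responds to cAMP and to activity, was at 14.6, 20.4 and 18.3 CPM in the P34 mice and 9.07, 9.52 and 8.69 CPM in the P38 mice. Its log2 fold change was -0.97 ± 0.20 (SE) with an edgeR adjusted p of 0.159, and it was the 1 gene called lower when the fit held only the 6 libraries. Nr4a1 and Nr4a3, immediate early genes of nuclear receptors, had log2 fold changes of -0.83 and -1.79 (edgeR adjusted p = 0.252 and 0.261). Nr4a1 was at 33.5, 32.8 and 44.2 CPM at P34, against 19.6, 21.0 and 21.4 CPM at P38, and Nr4a3 was at 2.68, 5.56 and 4.16 CPM and 1.12, 1.69 and 0.747 CPM. Bdnf, the gene of an activity-dependent neurotrophin, was at 14.1, 13.8 and 13.2 CPM and 10.3, 9.31 and 8.21 CPM, a log2 fold change of -0.56 ± 0.13 (SE, edgeR adjusted p = 0.214). DESeq2 called all 4 of these genes lower (adjusted p = 0.00194 for Sik1, 0.0104 for Nr4a1, 0.00554 for Nr4a3 and 0.0083 for Bdnf). The groups did not overlap in any of them, with the mice of a group far apart in Nr4a3.

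The remaining 4 were Bhlhe40, a transcriptional repressor gene linked to the circadian clock, Bhlhe22, Nlgn3 and the lincRNA gene BC055402. Bhlhe40 was at 84.3, 82.9 and 82.0 CPM at P34, against 58.6, 62.8 and 60.3 CPM at P38, a log2 fold change of -0.46 with an edgeR adjusted p of 0.165. Nlgn3, encoding the synaptic adhesion protein neuroligin 3, was at 31.7, 31.9 and 31.8 CPM and 24.7, 24.7 and 23.5 CPM (edgeR adjusted p = 0.214). Bhlhe22, a transcription factor gene of amacrine and bipolar cells, was at 47.6, 40.2 and 48.1 CPM and 29.1, 34.6 and 34.2 CPM (edgeR adjusted p = 0.240). BC055402 was at 31.7, 36.0 and 35.1 CPM and 23.7, 23.1 and 27.5 CPM (edgeR adjusted p = 0.274). All 4 had a DESeq2 adjusted p under 0.05 but a change within the fold limit. For BC055402 the P30 and P32 mice, at 20.7 to 27.4 CPM, were also below the P34 mice, whereas for Bhlhe40, Bhlhe22, Nlgn3 and Sik1 the means at P30 and P32 lay above the P38 mean.

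**Figure D5:**
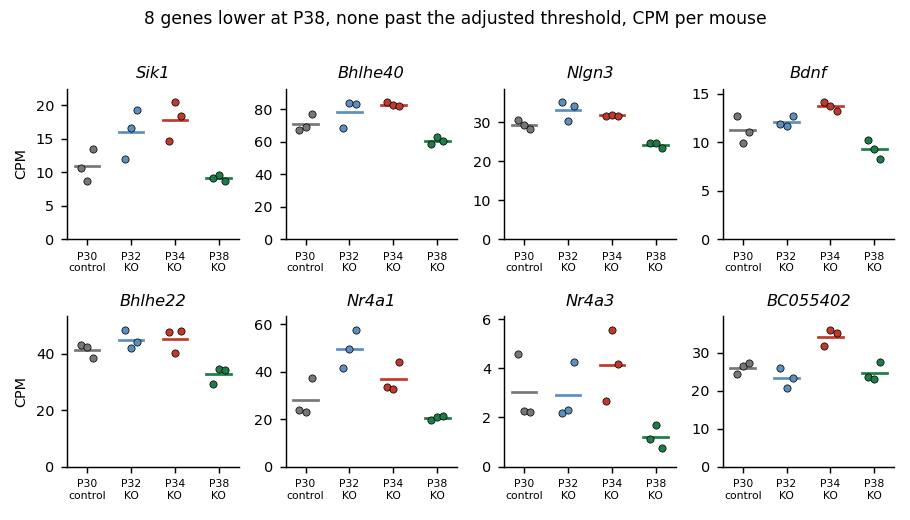
CPM (y-axis, linear, from 0) of the 8 genes with the smallest p among those lower at P38, in the 3 mice of each group (x-axis), with the mean as a bar. P38 mice lie below P34 mice in each panel, at most 9.52 CPM against at least 14.6 CPM in Sik1, and none passed the adjusted threshold.

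Immediate early genes as a list had 14 negative and 3 positive log2 fold changes among the 17 tested of 18, with a median of -0.431. By the edgeR test 0 passed, and 6 were lower at an unadjusted p of at most 0.05 with the fold limit. Of the 17, 5 were lower in every P38 mouse than in every P34 mouse (Nr4a1, Nr4a3, Dusp1, Fos and Egr3), beside 4.58% of all genes tested. Fos was at 44.4, 31.0 and 28.5 CPM at P34, against 23.9, 14.4 and 11.5 CPM at P38 (log2 fold change -1.06, edgeR adjusted p = 0.440), and DESeq2 called Fos, Dusp1, Nr4a1 and Nr4a3 of this list lower. The levels of Fos were 40.8, 51.7 and 52.5 CPM at P32 and 18.1, 18.7 and 32.7 CPM in P30 controls. All 5 red blood cell markers had a negative sign with a median of -1.33 and a summed level of 44.4 to 102 CPM at P34 and 21.6 to 30.4 CPM at P38. Of these 0 passed by edgeR or DESeq2, and 3 had an unadjusted p of at most 0.05 with the fold limit. In 4 of the 5 the groups did not overlap, beside 4.58% of all genes tested with P38 below P34.

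The start sites of the called genes were read for the letters TAATCC on either strand (GGATTA on the other), the core bound by OTX2 and CRX. In windows of 250 bases upstream to 50 bases downstream of RefSeq start sites (GRCm38.p6), 24 of the 37 genes were matched by symbol. The letters were present for 3 of the 24 genes (12.5%: Ltbp1, Ltbp2 and Slc6a13), beside 8.14% of all 27025 genes with such a window. By window, 3 of 32 held them (9.38%), beside 7.06% of all 32851 windows. The stretches upstream of Ltbp1 (chr17:75178659-75178780, plus strand) and Slc6a13 (chr6:121300161-121300226, plus strand) are shown 5′ to 3′ with the match in capitals, since these genes rose and their match lies outside annotated exons on either strand. The Ltbp2 match lies in an exon of the antisense gene D030025P21Rik and is not shown. The Ltbp1 start site is an internal start within the GENCODE span of the gene.
Ltbp1: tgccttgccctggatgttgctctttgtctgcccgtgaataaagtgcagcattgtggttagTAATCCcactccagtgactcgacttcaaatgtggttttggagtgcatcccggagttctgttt
Slc6a13: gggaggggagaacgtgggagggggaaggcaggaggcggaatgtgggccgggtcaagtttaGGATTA
The match begins at -62 and -67 from the RefSeq start site, where -1 is the base before it. No binding was measured here, and a match is a description of the letters only.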

How the data were processed

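RNA-seq was performed on poly(A) RNA of retinas from 12 mice, 3 per group, with stranded libraries and single-end reads. The deposited values are raw read counts per Ensembl gene: the authors mapped reads to mm10 with STAR 2.5.3a and counted them with HTSeq 0.6.1p1 in union mode. The strand setting of the counting is not given in the sources used here, so overlapping and antisense genes may share reads. Reads that HTSeq assigned to no gene were removed before library sizes were set (no feature, 6.53% to 13.7% of the reads in the 6 files, and alignments to several places, 23.7% to 29.3%). Symbols and coordinates came from GENCODE M21 (GRCm38), which named 54079 of 54146 genes.

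Genes kept by filterByExpr (18628) were fitted with edgeR 4.0.16 (R 4.3.3, TMM scaling, quasi-likelihood) with 1 mean per group over all 12 libraries, which share 1 estimate of the spread. The contrast was P38 minus P34, with Benjamini-Hochberg adjusted p over all genes tested. SE is the log2 fold change divided by the square root of F. With 3 mice against 3, an exact permutation test of a single value cannot go below 0.1, so none is quoted. Mice of both sexes were present, read from sex-linked transcripts. Mice 9 and 12 were female and mice 7, 8, 10 and 11 male, the same split in P34 and P38. All P30 controls were female, as were P32 mice 5 and 6, and P32 mouse 4 was male. The reference levels therefore come from groups with another balance of sexes. Labels name separate mice but no batch.

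Named genes were all those passing, with values per mouse for the 12 largest changes, the 6 smallest p and the highest member of each list with at least 2 calls, plus Otx2, Crx, the genes named by the study, and 8 lower genes. Ogn, Otx1, Msx1, Cryaa, Fos, H2-Aa, Gpx3, Vim, Mlph, Aldh3a1, Col4a1 and Nid1 fall outside this rule and were chosen after their values were seen. The members and lists were chosen with earlier results of these data known. Alternatives were DESeq2 1.42.0, its size factors, other filters, other sets of libraries, a robust fit, sex as a covariate, no fold limit, unadjusted p, and leaving out each mouse. Some genes are not reported here. The script was tested on simulated data.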

Additional observations from a re-analysis of the deposited data

How the results depend on the processing

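The 37 genes higher at P38 numbered 112 with no filter on low counts (with 3 lower, Nr4a1, Nr4a3 and Sik1), 137 with DESeq2 (7 lower), 70 in a fit of the 6 libraries (35 of the 37 among them, and 1 lower, Sik1), 21 in a fit of the 9 KO libraries, all within the 37, and 560 with unadjusted p (149 lower). Leaving out 1 mouse gave 8 to 50 higher genes and 0 to 1 lower, the 1 being Wdfy1 without mouse 12. The other alternatives, DESeq2 size factors, a filter of 1 CPM, a robust fit, sex as a covariate and no fold limit, stayed within 1.5 times the count. Of the 37 genes, 0 changed direction in the 16 alternatives, and F5, Fbln1, Ltbp2, Mfap4, Optc, Slc13a4, Slc26a4 and Vcan passed in every one. Dsg1a was tested in 15 of the 16. No fold limit and unadjusted p keep the main fit with a looser limit. In those settings a called gene had to pass with the same sign. Of the 33 genes that the naming rule covers and that did not pass, 5 changed sign in some fit that left out 1 mouse, with log2 fold changes from -0.0223 to 0.116 for Otx2, -0.0838 to 0.143 for Crx, -0.0954 to 1.79 for Dcn, -0.0689 to 0.677 for Myh11 and -0.0624 to 0.33 for Thbd. Genes named outside that rule were not included in this count. The cause of these differences was not tested. No paired analysis was possible because the mice of the groups carry different numbers. Counts of 3 or fewer reads limit the folds of Dsg1a and Tbx22. Gm6969, Best2, Dsg2, Notum and Ces1d had at most 9 reads in any P34 mouse, so their folds also rest on few reads.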

Other observations

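MHC class II genes were among lists without a call that still separated the groups in part. Of 12 tested antigen presentation genes, 0 passed by edgeR and 2 by DESeq2. At an unadjusted p of at most 0.05 with the fold limit, 5 were higher. P38 was above P34 in every mouse for 5 of the 12, beside 5.36% of all genes tested. H2-Aa, which encodes a chain of the class II receptor, was at 0.690, 0.490 and 0.677 CPM at P34, against 2.86, 2.44 and 1.63 CPM at P38 (log2 fold change 1.91, edgeR adjusted p = 0.440, and 0.0498 in a fit of the 6 libraries alone). The 11 microglia and macrophage markers summed to 66.0 to 90.6 CPM at P34 and 70.7 to 91.9 CPM at P38. They gave 0 calls by edgeR, 1 by DESeq2 and 2 at an unadjusted p of at most 0.05 with the fold limit.

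Cholesterol synthesis and uptake genes had a negative log2 fold change in 21 of 22, with a median of -0.13 and 0 calls by edgeR or DESeq2, also at an unadjusted p with the fold limit. Of 45 glutamate, GABA and glycine receptor subunits, 36 had a negative sign, with a median of -0.141 and 0 calls by the same measures. Gpx3, the plasma glutathione peroxidase gene, was at 9.69, 6.15 and 7.11 CPM at P34, against 36.0, 33.8 and 27.5 CPM at P38, and passed in the fit of the 6 libraries (edgeR adjusted p = 0.00383) and by DESeq2 (adjusted p = 1.8e-05) but not by edgeR with all 12 (adjusted p = 0.121).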
